A study of Mus musculus with 6 samples.

Results

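Excitatory synapses are assembled from glutamate receptors and the scaffold proteins that hold those receptors under the synaptic contact. Transcripts of 37 genes of this machinery were followed here in mouse motor neurons (MNs) made from embryonic stem cells. They comprise 24 glutamate receptor genes (AMPA, kainate, NMDA, delta and metabotropic receptors) and 13 genes for Dlg, Shank and Homer scaffolds and neuroligins. Members were chosen by name from the gene families, with earlier results of these data known, and all 37 were found among the 34433 gene symbols of the deposited table. Hb9 control MNs (control MNs) came from 1 mouse embryonic stem cell line that the labels call wildtype, and A2 SMA MNs (SMA MNs) came from 1 line of the genotype SMN2+/+;mSmn-/-, which models spinal muscular atrophy (SMA). Per the study's methods both lines carry the human SMN2 transgene and an HB9:eGFP reporter, so that as named the genotypes differ in mouse Smn1. Both lines are of the FVB/N background. Embryoid bodies were first grown for 2 days with noggin and fibroblast growth factors. They were then treated with 1 µM retinoic acid and 1 µM Smoothened agonist for 5 days. GFP-positive cells were collected by FACS after that, without the separate maturation step in neurotrophic factors. RNA was sequenced from 3 samples of each line, but the table holds 1 pooled FPKM (fragments per kilobase of transcript, scaled to the mapped reads) per gene and genotype. Every difference described here is therefore between a pair of pooled values, with no SD, no test and no replicate check. The reads behind a single FPKM are unknown, and genotype cannot be told apart from cell line.

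AMPA and kainate receptors are tetrameric cation channels that open when glutamate binds and carry most fast excitatory current, and an AMPA receptor that includes the Gria2 subunit is nearly impermeable to calcium. NMDA receptors need the obligate Grin1 subunit together with Grin2 or Grin3 subunits, and admit calcium only when the cell is already depolarised. Metabotropic receptors signal through G proteins. Dlg, Shank and Homer proteins form the layers of the postsynaptic density, and neuroligins reach across the cleft to presynaptic neurexins. In the spinal cord, MNs receive glutamatergic input from descending tracts, interneurons and muscle afferents.

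Most receptor families had less transcript in A2 SMA MNs than in Hb9 control MNs, and the NMDA family had a higher sum because of Grin1. Summed over its subunits, the AMPA family had 17.1 FPKM in control MNs against 1.72 FPKM in SMA MNs, whereas the NMDA family had 12.8 and 19.8 FPKM. Wherever a pair of values is given, the control comes before the SMA value. At least 1 FPKM in either genotype was found for 25 of the 37 genes. Of these 25, 15 were at least 2-fold lower and 2 at least 2-fold higher in A2 SMA MNs, and 8 lay within 2-fold. Among the 14926 genes of the table that passed the same filter, 22.4% were at least 2-fold lower and 6.83% at least 2-fold higher. The median log2 ratio of A2 over Hb9 was -1.70 over the 25 genes and -0.29 over all genes. A gene that reached 1 FPKM in a single genotype had to differ to pass. This holds for 7 members that passed only through Hb9 (Gria1, Gria2, Gria4, Grik2, Grin2d, Grm2 and Shank2) and for 1 (Grm7) that passed only through A2. With at least 1 FPKM required in both genotypes, 17 members remained, of which 8 were at least 2-fold lower and 1 was at least 2-fold higher, against 17.8% and 4.97% of 13252 genes. Their median log2 ratio was then -0.91, and that of all such genes was -0.25.

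**Figure D1:**
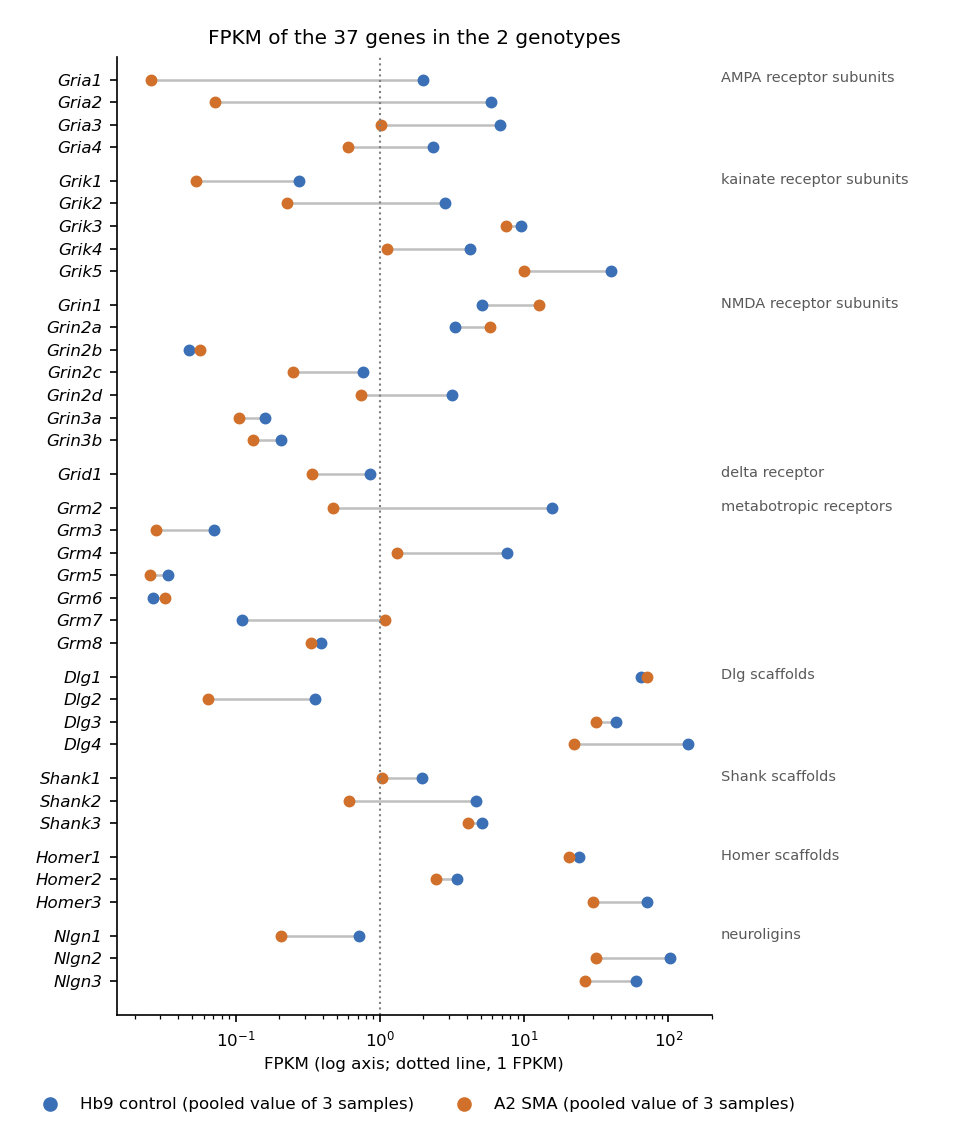
FPKM on a log axis of the 37 genes, grouped by family, with 1 point for the pooled value of the 3 Hb9 control samples and 1 for that of the 3 A2 SMA samples, joined by a line. Gria1, Gria2 and Grm2 have the longest lines, from 2.0, 5.93 and 15.7 FPKM in Hb9 to 0.0257, 0.0713 and 0.472 FPKM in A2, while Grin1, Grin2a, Grin2b, Grm6, Grm7 and Dlg1 have the A2 point on the right.

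As a check of the labels, Smn1 was at 137 FPKM in control MNs against 5.26 FPKM in SMA MNs. The gene Mnx1, which encodes Hb9 and whose promoter drives the reporter used for sorting, was at 41.2 and 44.2 FPKM. Markers of neurons as a whole were lower in A2 SMA MNs in 10 of 10 genes, by log2 ratios of -4.56 to -1.63, the last from an entry that Cuffdiff marked FAIL for a numerical problem. Summed over all genes of the list that were in the table, as for each list below, their level was 1499 against 145 FPKM. Among the 6 motor neuron markers above the filter, 5 were at least 2-fold lower, with a summed level of 216 and 52.5 FPKM, and Isl1 was at 108 and 5.95 FPKM. Embryonic stem cell markers were at least 2-fold higher in 10 of 10 genes, with sums of 287 and 1876 FPKM. Neural progenitor markers were at least 2-fold lower in 7 of 8 genes (2386 and 221 FPKM), spinal interneuron markers in 7 of 7 (44.7 and 7.55 FPKM), glial markers in 4 of 6 (85.8 and 27.2 FPKM) and fibroblast markers in 4 of 8, with 1 at least 2-fold higher (75.7 and 42.1 FPKM), beside 22.4% lower and 6.83% higher over all genes. Markers that passed the filter only through Hb9 were 2 neuronal, 3 motor neuron, 2 progenitor, 5 interneuron, 1 glial and 1 fibroblast genes, and the higher fibroblast marker passed only through A2. No marker in the table was at 0 in either genotype, and 2 of 12 neuronal, 1 of 8 motor neuron and 1 of 9 progenitor markers, not matched by symbol, were not analysed here. Summed levels of these marker lists thus differed with genotype, and their part in the values below was not tested. In bulk RNA, fewer cells that express a gene and less of its RNA per cell cannot be told apart.

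The AMPA family was lower in A2 SMA MNs in every subunit. Gria2, the subunit that sets calcium permeability, was at 5.93 FPKM in control MNs against 0.0713 FPKM in SMA MNs, which is 83.1-fold lower (log2 ratio -6.38). Its entry spans chr3:80488858-80606731 in NCBI m37, the build of the table, whose starts were read as counted from 0, so that 1 was added to each start printed here. Gria1, the subunit best known for activity-driven insertion at synapses (chr11:56824889-57143746), was at 2.0 and 0.0257 FPKM, or 77.7-fold lower. In SMA MNs both transcripts were thus far under 1 FPKM, where such folds are imprecise. With 1 FPKM added to both values the log2 ratio was -2.69 for Gria2 and -1.55 for Gria1. Gria3 was at 6.82 and 1.02 FPKM (log2 ratio -2.74). Gria4, whose subunit has fast kinetics, was at 2.34 and 0.602 FPKM (log2 ratio -1.96). Because the differences were unequal, the make-up of the family differed between the genotypes. Gria2 supplied 34.7% of the AMPA sum in Hb9 control MNs and 4.14% in A2 SMA MNs, and Gria1 supplied 11.7% and 1.5%. Gria3 and Gria4 together made up the rest, with Gria3 at 39.9% and 59.4% and Gria4 at 13.7% and 34.9%. These shares describe transcripts and not assembled receptors, and in A2 SMA MNs they rest on a sum of 1.72 FPKM. The entries of Gria2, Gria3 and Gria4 each also hold a gene model named only by a clone, whose part in these values was not tested.

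Kainate receptors were dominated by 1 subunit in both genotypes. Grik5, a high-affinity subunit that needs a partner from Grik1 to Grik3 to form a channel, was at 40.1 FPKM in control MNs against 9.98 FPKM in SMA MNs, or 4.01-fold lower. Cuffdiff marked its entry as FAIL, which marks a numerical problem at that locus, and whether its FPKM values are affected was not tested. Grik4, the other high-affinity subunit, was at 4.24 and 1.12 FPKM (log2 ratio -1.92), in an entry that also holds a clone-named gene model. Grik2, a channel-forming subunit, was at 2.82 and 0.226 FPKM, or 12.5-fold lower (log2 ratio -3.64, and -1.64 with 1 FPKM added). Grik3, also channel-forming, differed little, with 9.49 and 7.47 FPKM and a log2 ratio of -0.35 that lies close to the median gene. Thus Grik3 accounted for 16.7% of the kainate sum in Hb9 control MNs and 39.6% in A2 SMA MNs, while Grik5 accounted for 70.4% and 53.0%. Grik1 stayed under the filter in both, at 0.276 and 0.0528 FPKM.

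NMDA receptor transcripts were the receptor family with a higher sum in A2 SMA MNs, which rested on Grin1. Without Grin1 the sum was 7.69 and 7.09 FPKM, and 4 of the 7 genes had the lower value in SMA MNs, with a median log2 ratio of -0.60 over all 7. Only 3 of the 7 reached 1 FPKM in a genotype, and the median log2 ratio over those 3 was 0.80. Grin1, the obligate subunit (chr2:25145435-25174707), was at 5.12 FPKM in control MNs against 12.7 FPKM in SMA MNs, a log2 ratio of 1.31 (2.48-fold higher). Relative to the median gene the log2 difference was 1.60. Grin1 stood above 25.4% of genes in Hb9 control MNs and above 49.7% in A2 SMA MNs. Grin2a, a glutamate-binding subunit that gives the receptor fast decay and is typical of mature neurons, was at 3.33 and 5.81 FPKM (log2 ratio 0.80), which is under 2-fold but past it relative to the median gene (1.09). A second entry for Grin2a in the table was lower in A2 SMA MNs, at 0.333 and 0.0472 FPKM. Grin2d, a slow-decaying subunit prominent early in development, ran the other way with 3.18 and 0.736 FPKM (log2 ratio -2.11), although a second Grin2d entry was at 1.52 and 1.27 FPKM. Grin2b, the subunit most characteristic of immature neurons, was almost undetected at 0.0477 and 0.0565 FPKM. Grin1 supplied 40.0% of the NMDA sum in Hb9 control MNs and 64.2% in A2 SMA MNs, and Grin2d supplied 24.8% and 3.72%. With the entries of each symbol summed, Grin2d supplied 32% and 9.51% and its log2 ratio was -1.23, while Grin1 supplied 34.9% and 60.2%. The NMDA sum was 0.75 times the AMPA sum in Hb9 control MNs and 11.5 times in A2 SMA MNs. The latter ratio rests on an AMPA sum of 1.72 FPKM, in which only Gria3 (1.02 FPKM) reached 1 FPKM.

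**Figure D2:**
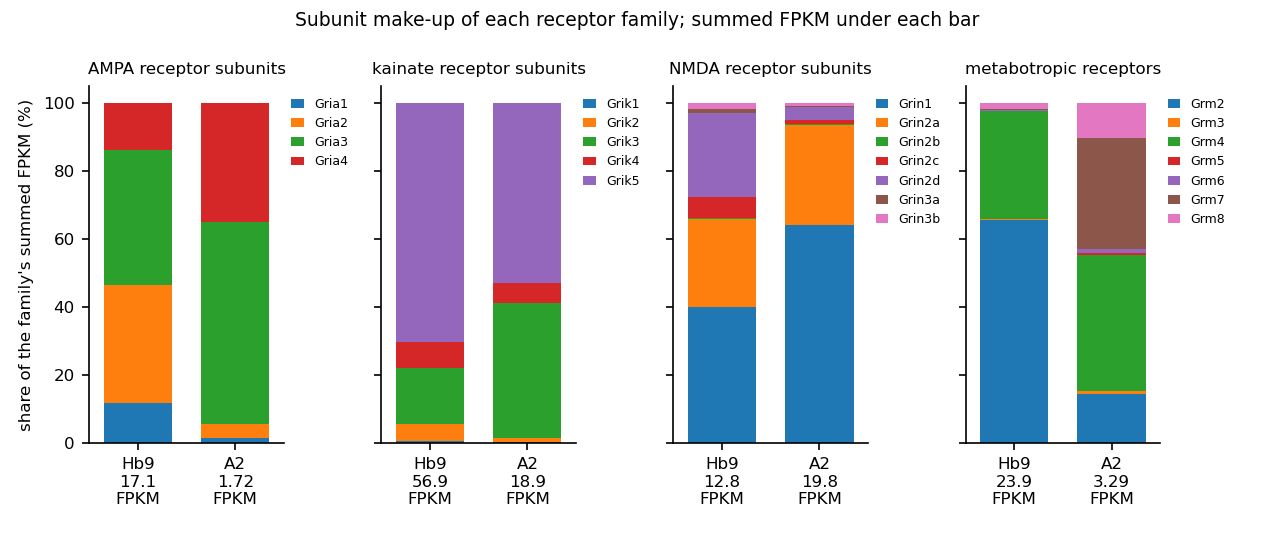
Share of each subunit in the summed FPKM of its receptor family (stacked bars, %, from 0 to 100) in Hb9 control and A2 SMA MNs, with the family sum in FPKM under each bar and 1 pooled value per genotype. The AMPA sum is 17.1 and 1.72 FPKM and the NMDA sum 12.8 and 19.8 FPKM, and the segments for Gria2, Grin2d and Grm2 are 34.7%, 24.8% and 65.7% in Hb9 and 4.14%, 3.72% and 14.4% in A2. With both Grin2d entries summed, its shares would be 32% and 9.51%.

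Metabotropic receptors held the highest log2 ratio of the 25 genes and the third lowest. Grm2, a receptor of group II that lowers cAMP and restrains glutamate release (chr9:106546868-106558440), was at 15.7 FPKM in control MNs against 0.472 FPKM in SMA MNs, or 33.2-fold lower (log2 ratio -5.05, and -3.50 with 1 FPKM added to both values). It provided 65.7% of the metabotropic sum in Hb9 control MNs and 14.4% in A2 SMA MNs. Grm4, a presynaptic receptor of group III, was at 7.57 and 1.31 FPKM (log2 ratio -2.53). Grm7, another presynaptic group III receptor (chr6:110589747-111517224), was at 0.111 FPKM in control MNs against 1.08 FPKM in SMA MNs, a log2 ratio of 3.29. Its A2 value is just past 1 FPKM, and with 1 FPKM added to both values the log2 ratio was 0.91, under 2-fold. Grid1, the delta receptor, which binds cerebellins rather than opening to glutamate, was at 0.852 and 0.336 FPKM and did not reach the filter.

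Promoter sequence was searched for 1 motif. RE1 is the element bound by the repressor REST, known for keeping neuronal genes silent outside neurons, and it was looked up after the values were seen. Its arms are CAGCACC and GGACAGC, 2 bases apart in the usual form, and both strands were searched in RefSeq promoters of GRCm38.p6 (250 bases before to 50 after each start site). This reference is another build than that of the table, and it holds promoters for 25 of the 37 genes. At most 1 mismatch over the 14 letters of the arms was found in 29 of 32851 promoters (0.0883%), and Gria2 was the member among them. Both arms without mismatch at a spacing of 2 to 9 bases occurred in 18 promoters (0.0548%), and Grm2 was the member among those. At most 3 mismatches occurred in 6.25% of promoters and in 4 of 39 promoters of the members, those of Gria2, Grm2, Grik2 and Grin1. Grm2 and Grik2, which were lower in SMA MNs, and Grin1, which was higher, each had 3 as their best with arms 2 bases apart. For Grm7, the member with the highest ratio, the best was 4, and Gria1 had no promoter in the reference. The 80-base windows below were chosen after the values were seen. They show the match with 1 mismatch in Gria2, the wider-spaced one in Grm2 and the one with 3 mismatches in Grin1. The Grm2 window comes from the other search, so it cannot be graded against the rest. They run 5′ to 3′ along the gene and lie upstream of its start site, with the matched stretch in capitals. In Gria2 (chr3:80802959-80803038, minus strand) the match is on the strand opposite to the gene and ends 155 bases before the start site. In Grm2 (chr9:106656280-106656359, minus strand) the arms are 7 bases apart and end 219 bases before it. In Grin1 (chr2:25319267-25319346, minus strand) the match is on the opposite strand and ends 111 bases before it.
Gria2: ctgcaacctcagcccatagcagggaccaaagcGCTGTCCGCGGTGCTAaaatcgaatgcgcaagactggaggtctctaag
Grm2: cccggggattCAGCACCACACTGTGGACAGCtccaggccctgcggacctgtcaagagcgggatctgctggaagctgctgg
Grin1: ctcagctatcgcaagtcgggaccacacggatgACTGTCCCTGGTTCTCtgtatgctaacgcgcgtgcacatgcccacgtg
These are matches of letters and describe the windows only. No binding was measured.

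Dlg1, Dlg3 and Dlg4 were among the most abundant of the 37 transcripts, and the Dlg scaffolds diverged from each other. Dlg4 encodes PSD-95, the principal scaffold of excitatory synapses, which ties NMDA receptors and AMPA receptor auxiliary subunits to the density (chr11:69830587-69859116). It was at 138 FPKM in control MNs against 22.3 FPKM in SMA MNs, a log2 ratio of -2.63. In rank it stood above 94.6% of genes in Hb9 control MNs and 62.9% in A2 SMA MNs. Dlg1 (SAP97), which is also found in many epithelial and other cells, was at 64.6 and 70.8 FPKM (log2 ratio 0.13). Dlg3 (SAP102), which carries NMDA receptors in young neurons, was at 43.0 and 31.6 FPKM (log2 ratio -0.44). Thus Dlg4 made up 56.0% of the Dlg sum in Hb9 control MNs and 17.9% in A2 SMA MNs, where Dlg1 was the leading transcript with 56.7%. Dlg2 (PSD-93) was under the filter at 0.352 and 0.0645 FPKM.

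Shank and Homer proteins form the deeper layer of the density, Shank as a master scaffold and Homer as its link to metabotropic receptors. Shank2 was at 4.62 FPKM in control MNs against 0.613 FPKM in SMA MNs, or 7.53-fold lower (log2 ratio -2.91, and -1.80 with 1 FPKM added). Shank3 was at 5.13 and 4.06 FPKM (log2 ratio -0.34) and Shank1 at 1.94 and 1.04 FPKM (log2 ratio -0.91), both within 2-fold. Homer3 was at 70.8 and 29.8 FPKM (log2 ratio -1.25, and -0.96 after subtracting the median gene). Homer1, whose short form is an activity-induced gene, was at 24.2 and 20.5 FPKM (log2 ratio -0.24, or 0.05 relative to the median gene). Homer2 was at 3.40 and 2.46 FPKM (log2 ratio -0.47).

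Of the neuroligins, the entries of Nlgn2 and Nlgn3 passed the filter. Nlgn2, known mainly from inhibitory synapses, was at 103 FPKM in control MNs against 31.7 FPKM in SMA MNs (log2 ratio -1.70), and its second entry was at 8.0 and 2.91 FPKM. The entry of Nlgn3, found at excitatory and inhibitory synapses, was at 59.8 and 26.6 FPKM (log2 ratio -1.17, or -0.88 relative to the median gene). Nlgn3 shares its entry with Med12, a Mediator subunit, so the value cannot be assigned to either gene alone. The entry is nevertheless counted as Nlgn3 in the main counts and medians of the members. Nlgn1, the excitatory neuroligin, was at 0.710 and 0.205 FPKM and did not pass the filter.

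Receptors and scaffolds were set side by side in this way. Of the 14 receptor genes above the filter, 10 were at least 2-fold lower, 2 at least 2-fold higher and 2 within 2-fold, with a median log2 ratio of -2.06, beside 22.4% lower and 6.83% higher over all genes. Of the 11 scaffold and neuroligin genes, 5 were at least 2-fold lower, 0 higher and 6 within 2-fold, with a median of -0.91. Whether the groups differ was not tested, and 6 of the 14 receptor genes against 1 of the 11 others passed only through Hb9. With 1 FPKM required in both genotypes, the medians were -1.92 over 7 receptor genes and -0.69 over 10 scaffold and neuroligin genes.

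**Figure D3:**
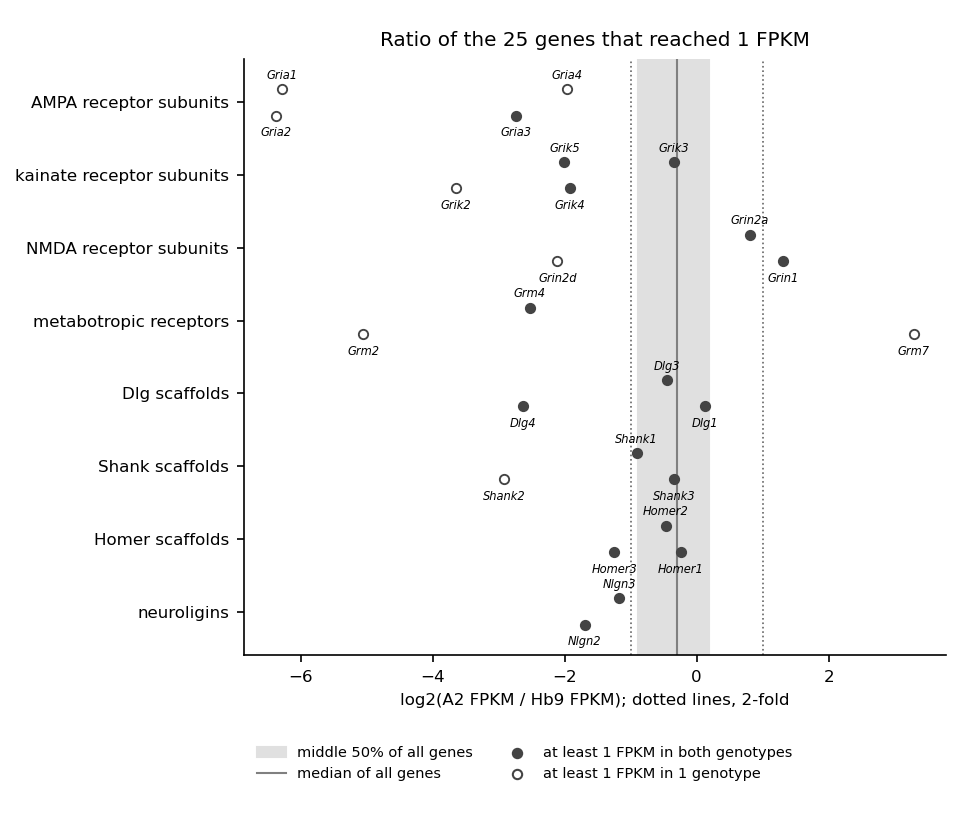
Log2 ratio of A2 over Hb9 FPKM for the 25 genes that reach 1 FPKM in a genotype, by family, with filled points for genes at 1 FPKM or more in both. The grey band is the middle 50% of all 14926 genes (-0.89 to 0.19), the solid line their median (-0.29) and the dotted lines 2-fold, and the AMPA subunits lie to the left of the band while Grin1, Grin2a and Grm7 lie to its right.

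The remaining 12 genes did not reach 1 FPKM in either genotype, with values between 0.0254 and 0.852 FPKM. They are Grik1, Grin2b, Grin2c, Grin3a, Grin3b, Grid1, Grm3, Grm5, Grm6, Grm8, Dlg2 and Nlgn1. Of these, 10 had the lower value in A2 SMA MNs and 2 (Grin2b and Grm6) the higher one. Cuffdiff marked 9 of them as having too few reads to test, the exceptions being Grin2c, Grid1 and Nlgn1. Grm5, the Homer-linked group I receptor of many central neurons, was at 0.0337 and 0.0254 FPKM. At such levels no difference can be read.

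Genes that act with the receptors were described from 4 lists, which were also written with earlier results known. Auxiliary and trafficking proteins (TARPs, cornichons, Neto proteins, pentraxins and their binding partners) had 13 of 18 genes above the filter, of which 6 were at least 2-fold lower and 1 was at least 2-fold higher (22.4% and 6.83% of all genes), with a median log2 ratio of -0.89. Of the 13, 2 passed only through Hb9, and with 1 FPKM required in both genotypes the median was -0.42. The most abundant were Nsf, the ATPase that recycles SNARE complexes and binds Gria2 (68.4 and 107 FPKM), and Nptxr, a pentraxin receptor whose entry also holds Cbx6 and Npcd (57.6 and 51.1 FPKM). Cacng7, a TARP with an entry marked FAIL, was at 51.6 and 55.9 FPKM, and Pick1, which binds the tail of Gria2, at 49.3 and 36.8 FPKM in an entry shared with a predicted gene. The 1 gene at least 2-fold higher was the TARP Cacng8, at 3.05 and 6.22 FPKM, named here after its value was seen. Lower genes, named on the same basis, include the TARP Cacng4, next in abundance at 49.1 and 3.36 FPKM, and Gsg1l, an AMPA receptor auxiliary protein, at 6.02 and 0.121 FPKM.

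Other proteins of the postsynaptic density were above the filter in 25 of 25 genes. Of these 13 were at least 2-fold lower and 0 at least 2-fold higher (22.4% and 6.83% of all genes), with a median log2 ratio of -1.08. Only through Hb9 passed 5 of the 25, and with 1 FPKM required in both genotypes 9 of 20 were at least 2-fold lower (17.8% of all genes). Dlgap4, which joins Dlg to Shank proteins, was at 124 and 58.2 FPKM (log2 ratio -1.09). Lin7c, a PDZ adaptor, was at 84.5 and 61.9 FPKM (log2 ratio -0.45). Ppp1r9b (spinophilin), which brings a phosphatase to spines, was at 80.8 and 33.7 FPKM (log2 ratio -1.26), and Iqsec1, an exchange factor for Arf6, at 62.4 and 29.5 FPKM (log2 ratio -1.08, marked FAIL).

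Trans-synaptic partners, which include the neurexins that bind neuroligins, had the lowest median of the 4 lists. In this list 20 of 24 genes passed the filter, 18 were at least 2-fold lower and 0 at least 2-fold higher (22.4% and 6.83% of all genes), and the median log2 ratio was -3.06. Passing only through Hb9 applied to 12 of the 20, and with 1 FPKM required in both genotypes 6 of 8 genes were at least 2-fold lower (17.8% of all genes) and the median was -1.48. Ptprs and Ptprf, receptor phosphatases of the LAR family, were at 308 and 104 FPKM and at 169 and 95.1 FPKM, both in entries marked FAIL. Nrxn2, a neurexin, was at 73.3 and 9.85 FPKM (log2 ratio -2.89), and Lrfn4, an adhesion protein that binds Dlg4, at 31.1 and 11.8 FPKM (log2 ratio -1.40). Nrxn3, another neurexin, named after its value was seen, was at 6.10 and 0.314 FPKM.

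Glutamate uptake and turnover had 8 of 8 genes above the filter and a median log2 ratio of -0.13 (0.16 relative to the median gene), with 2 genes at least 2-fold lower and 1 at least 2-fold higher. These shares, 25% and 12.5%, are near those over all genes (22.4% and 6.83%). Glud1, glutamate dehydrogenase, was at 75.1 and 103 FPKM in an entry marked FAIL, and Glul, glutamine synthetase, at 50.4 and 52.5 FPKM. Gls2, a glutaminase, was at 16.1 and 36.6 FPKM (log2 ratio 1.19). The genes at least 2-fold lower were the transporters Slc1a3 (32.2 and 6.86 FPKM) and Slc1a2 (11.2 and 1.89 FPKM), both typical of astrocytes and named after their values were seen, and Slc1a3 is also in the glial marker list above.

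**Figure D4:**
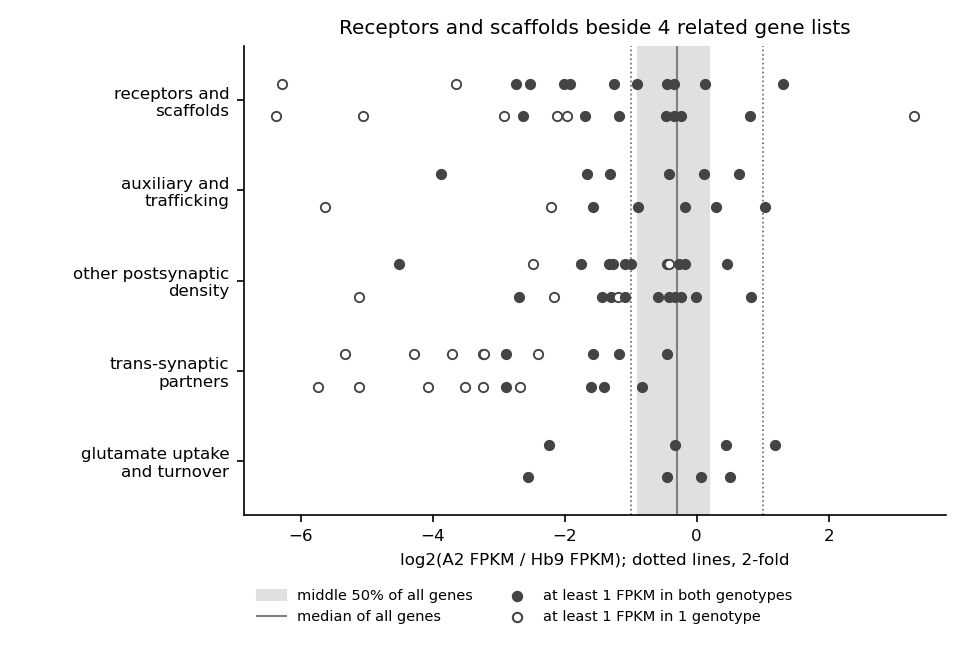
Log2 ratio of A2 over Hb9 FPKM for the 25 receptor and scaffold genes and 4 related lists, 1 point per gene that reaches 1 FPKM in a genotype, filled where both genotypes reach 1 FPKM. Grey band, solid line and dotted lines are the middle 50% of all genes, their median and 2-fold, and the medians of the lists run from -3.06 for trans-synaptic partners to -0.13 for uptake and turnover, with -1.70 for the receptors and scaffolds.

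The loci of these genes are long, which the choice of members did not use. Their entries spanned 11.6 kb (Grm2) to 1945 kb (Dlg2) with a median of 184 kb. Over the 25 members above the filter the median was 102 kb, against 30.2 kb over all genes above it, and 14 of the 25 were longer than the upper quartile of 74.4 kb. Across the 25 genes above the filter, Spearman's rho between locus span and log2 ratio was 0.002, and across all 14926 genes it was -0.101. These are correlations across genes, which share the same libraries and are not independent replicates, and a span includes introns and any neighbour that was merged into the entry. Entries holding more than 1 symbol occurred for 6 members. Nlgn3 shared with Med12, Grm8 with the microRNA gene Mir592, and Gria2, Gria3, Gria4 and Grik4 with a gene model named only by a clone. Homer3 overlaps the entry of Ddx49 and Grin3b that of ORF61, and whether reads were counted by strand is not given in the sources used here, so reads of these neighbours cannot be told apart where they overlap.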

How the data were processed

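RNA-seq of FACS-purified MNs from 2 genotypes, with 3 samples each, was analysed from 1 gene table. Per the labels and the study's methods, the authors checked reads with FastQC 0.10.1, trimmed adapters with cutadapt, mapped to NCBI m37 with TopHat2 2.04, and ran Cufflinks and Cuffdiff. The deposited FPKM values are 1 pooled value per genotype, normalised by Cuffdiff. Its columns of fold change, test statistic, p, q and significance hold the authors' own comparison and were not used. The status flag was read as deposited and served to mark entries.

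Gene fields were split at commas and, per symbol, the entry with the highest FPKM was kept. Log2 ratios were formed without a pseudocount where either genotype reached 1 FPKM and both exceeded 0, each entry counted once. As an exception, the NMDA median over all 7 genes also used genes under 1 FPKM. At least 2-fold was called a difference. The number of per-sample columns left out was 0. Members above 1 FPKM are named with values, others by range, plus the 4 most abundant genes of each related list, up to 2 per marker list, and Smn1 and Mnx1. Some genes that this rule names are not reported here. Members and lists were chosen with earlier results of these data known. Versions were scipy 1.17.1, pandas 2.3.3, numpy 2.4.6 and matplotlib 3.10.9 under Python 3.11.15. The reads behind each value are unknown and library totals were not used here, so no counting interval was given. Alternatives were pseudocounts of 0.1 and 1 FPKM, no filter or 5 FPKM, summed entries, entries with 1 symbol, centring on the median gene or upper quartile, leaving out FAIL, and at least 4-fold.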

Additional observations from a re-analysis of the deposited data

How the results depend on the processing

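No paired analysis was possible because the table holds 1 pooled value per genotype, and for the same reason no sample could be left out in turn. Precision at low FPKM is limited by the reads behind each value, whose number is unknown. Among 227 values of single receptor and scaffold genes under the alternatives, the sign changed in 2, both for Homer1, and 0 of these were at least 2-fold in the report. Homer3, Nlgn3 and Grm7 went under 2-fold in 5 of the values. Medians of the receptors and scaffolds, auxiliary proteins, other density proteins, trans-synaptic partners and uptake genes are given below in that order on the log2 scale. They were -1.69, -0.88, -1.07, -2.57 and -0.12 with a pseudocount of 0.1 FPKM, and -1.22, -0.77, -0.74, -1.31 and -0.060 with 1 FPKM, where 1 receptor gene and 0 auxiliary genes were at least 2-fold higher. Without a filter the receptors and scaffolds, auxiliary proteins and trans-synaptic partners were at -1.34, -1.10 and -2.89. With at least 5 FPKM in either genotype they were -1.21, -0.42, -0.83, -1.58 and -0.19, the numbers at least 2-fold lower were 9 of 16, 8 of 16 (density) and 8 of 10 (trans-synaptic), and 1 receptor gene was at least 2-fold higher, beside 20% lower and 4.81% higher over all genes. Summed entries gave -1.25 for receptors and scaffolds and -3.17 for trans-synaptic partners, and Grin1 was 34.9% and 60.2% of the NMDA sum in Hb9 and A2. The first median moved so far because Grin2d crossed it and the next gene up was Homer3. With entries of 1 symbol the first 3 were -1.08, -1.32 and -1.03. Of the receptors and scaffolds, 10 of 20 were then at least 2-fold lower and 2 higher, beside 22.5% and 6.9% over all genes. Centring on the median gene, a shift of 0.29, gave -1.41, -0.60, -0.79, -2.77 and 0.16, and scaling to the upper quartile -1.41, -0.60, -0.79, -2.77 and 0.16, so the uptake list changed sign, and 1 density gene was at least 2-fold higher under each. Over all genes centring gave 16.5% lower and 10.4% higher in place of 22.4% and 6.83%, and 13 and 3 (Grin2a being added) of the receptors and scaffolds. Without FAIL entries the receptors and scaffolds, density proteins and uptake genes were at -1.47, -1.04 and -0.32. At 4-fold, 10 of 25 members were lower and 1 higher, beside 8.88% and 1.80% of all genes. The filter of 1 FPKM in both genotypes, chosen after seeing the data, gave -0.91, -0.42, -0.78 and -1.48, with 8 lower and 1 higher among receptors and scaffolds and 6 lower among trans-synaptic partners.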
